A study of Sus scrofa with 8 samples.

Results

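The complement genes C3, C5, C1QA, C1QB, CFB, CFD, CD46, CD55 and CD59 were followed in the lung of Tibetan and Duroc pigs raised at high and low altitude. A gene was included through every array probe that carried its symbol and was well above background on at least 1 array. Of the 9 genes listed, 7 had such a probe, 1 probe each, among 43603 probes on the array. No probe named for C1QB or CD46 was found, so both are absent from the results. The 7 probes passed the filter on low signal on all 8 arrays, and 34406 probes in all were tested.

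Complement is a cascade of plasma and tissue proteins that marks microbes and damaged cells for removal. It is started by C1q bound to antibody or dead cells (the classical pathway), by lectins bound to sugars, or by the slow spontaneous activation of C3 that factor B and factor D amplify (the alternative pathway). All routes cleave C3 and then C5, which releases inflammatory fragments and starts the membrane attack complex. CD46, CD55 and CD59 on the host's own cells restrain it. Much plasma complement is made in the liver, whereas C1q comes largely from macrophages, and lung epithelium and alveolar macrophages make some components themselves.

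TH were Tibetan pigs, native to and raised at 3500 m. TL were Tibetan pigs moved from there to 40 m at 1 month of age. DL were Duroc pigs raised at 40 m, and DH were Duroc pigs moved from there to 3500 m at 1 month of age. All were female and were killed at 6 months of age, after a period of feed restriction. Each group had 2 arrays, and each array held the lung RNA of 1 animal. The lung pieces are bulk samples, in which fewer cells of a type and less RNA per cell cannot be told apart. The comparisons asked how expression differed between breeds, between altitudes, and whether the altitude difference depended on breed.

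The arrays of TH and DL lay on slide 1 and those of DH and TL on slide 2. The breed effect (Tibetan minus Duroc, averaged over altitudes) and the altitude effect (high minus low, averaged over breeds) are therefore balanced over the slides, whereas the interaction and every comparison of 2 groups that share a breed or an altitude cannot be told apart from the slide. The TL arrays stood apart, with a median raw signal of 324 and 333.5 against 207.5 to 230 on the other 6 arrays, and 31641 and 31723 probes well above background against 26466 to 29319. The lung label was borne out by alveolar type II cell markers: 5 of 9 had a probe, all well above background on all 8 arrays, and SFTPC, a surfactant protein, read 18.55 to 19.04 on the log2 scale. None of 7 neutrophil markers had a named probe.

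Values are the log2 expression values the authors deposited, normalized to the same distribution on each array, and differences are in log2 units with their standard error (SE). Each was tested with limma, with Benjamini-Hochberg adjustment over all 34406 probes, and was called at an adjusted p below 0.0001, the FDR the study used. Because the calls were so numerous, counts stand beside the share of all tested probes that was called. By direction, these shares were 12.8% higher and 14.6% lower in Tibetan lung, 14% higher and 12.2% lower at high altitude, and 14.9% upward and 13.5% downward for the interaction. Of the 7 complement genes, 2 were called for breed (27.4% of all tested probes), 2 for altitude (26.3%) and 0 for the interaction (28.4%). Among the 2994 tested probes with a RefSeq transcript as target, to which 6 of the 7 belong, these shares were 28.6%, 35.3% and 27.8%. Split by direction, they were 8.88% higher and 19.7% lower in Tibetan lung, and 25.2% higher and 10.1% lower at high altitude. For the interaction they were 21.8% upward and 5.91% downward. At an FDR below 0.05, 5 of the 7 genes passed for each of the 3 effects, against 71.6%, 70.8% and 73.7% of all tested probes. The calls for breed were C1QA, lower in Tibetan pigs, and CFB, higher in Tibetan pigs, and those for altitude were CFB, higher at high altitude, and CD55, lower there. The median breed effect of the 7 genes was -0.12, against -0.07 over all tested probes. The median altitude effect was 0.01, as it was over all tested probes. No probe of the 7 was saturated on any array, and the spots of C1QA, C3, C5 and CFB were read from a second scan at low gain on all 8 arrays.

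**Figure D1:**
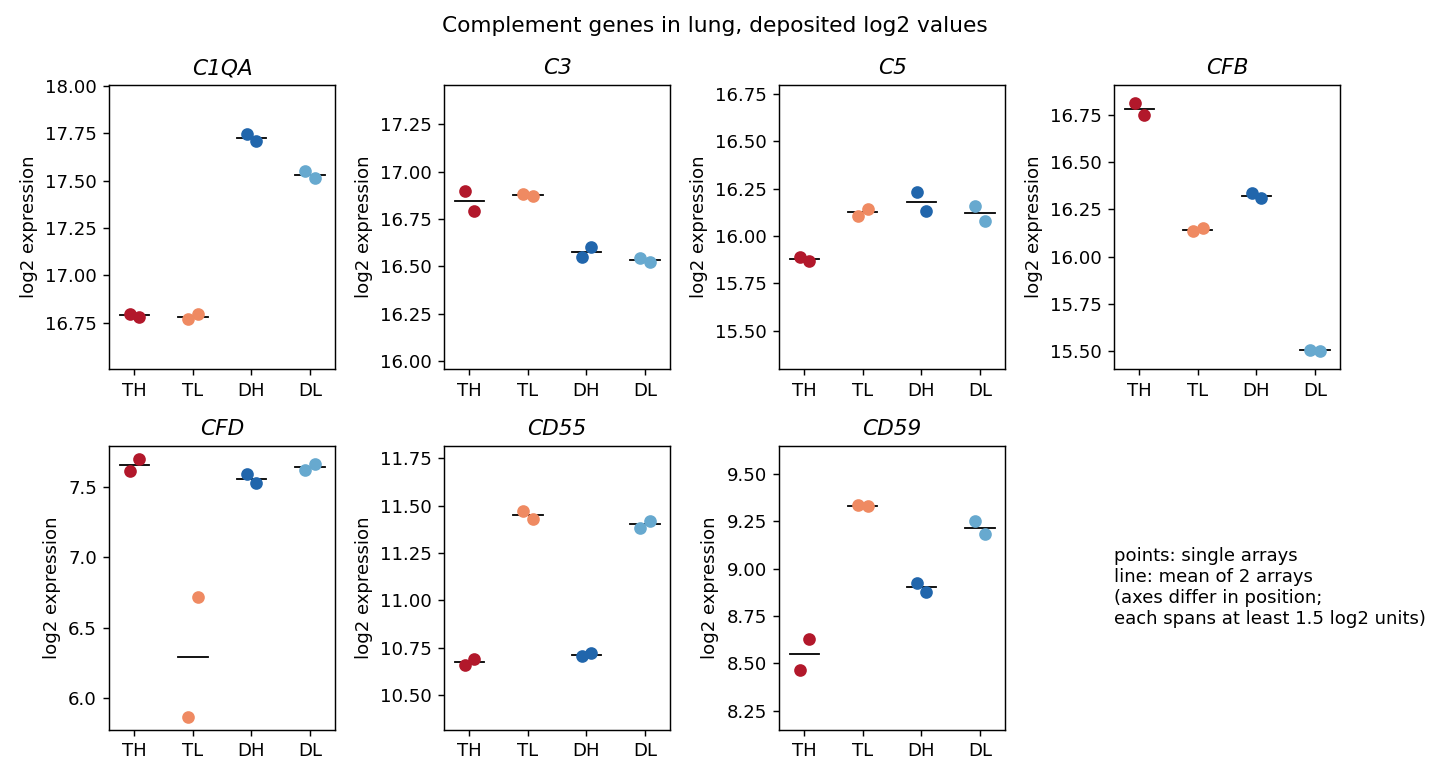
Deposited log2 expression (y axis) of the 7 complement genes in the 4 groups (x axis), with a point for each array and a line at the mean of 2 arrays. C1QA separates the breeds, CD55 and CD59 separate the altitudes, CFB steps up from DL to TH, and CFD is low only on the 2 TL arrays, which lie apart from each other.

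C1QA (probe A_72_P165561), a chain of C1q, the recognition molecule of the classical pathway, was lower in Tibetan than in Duroc lung at both altitudes. Its log2 value was 16.80 and 16.78 in TH, 16.77 and 16.80 in TL, 17.74 and 17.71 in DH, and 17.55 and 17.51 in DL. All 4 Tibetan arrays lay within a narrow band below all 4 Duroc arrays. The breed effect was -0.84 (SE 0.02, adjusted p = 3.98e-06), which is 1.79-fold lower in Tibetan pigs. At high altitude TH minus DH was -0.94 (adjusted p = 2.08e-05), and at low altitude TL minus DL was -0.75 (adjusted p = 9.59e-06). Within slide 1, where breed and altitude change together, TH minus DL was -0.74, and within slide 2 TL minus DH was -0.94, both called. Before any scaling between arrays, the processed signal was 101121 to 118005 on the Tibetan arrays and 182406 to 234090 on the Duroc arrays.

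The altitude effect on C1QA was small, 0.10 (SE 0.02, adjusted p = 0.0072), and did not pass the threshold. In Duroc pigs DH minus DL was 0.20 (adjusted p = 0.0028), and in Tibetan pigs TH minus TL was 0.01 (adjusted p = 0.86). The breed call held when any 1 of the 8 arrays was left out (adjusted p at most 8.71e-05). Without both TL arrays TH minus DH was again -0.94, with an adjusted p of 2.33e-04. Macrophage markers moved in the same direction: of 11 listed, 6 had a probe, all well above background on all 8 arrays, and 4 of the 6 were lower in Tibetan lung and 0 were higher, against 14.6% and 12.8% of all tested probes. Their summed log2 level was 18.04 to 18.05 in TH, 18.37 to 18.41 in TL, 18.75 to 18.77 in DH and 18.88 to 18.89 in DL. Lysozyme (LYZ) had the largest difference of the 6, with a breed effect of -2.16, whereas CD163, the hemoglobin scavenger receptor of macrophages, had -0.09 (adjusted p = 0.011) at its brightest probe. The other CD163 probes gave -0.33 (adjusted p = 7.49e-05) and -0.25 (adjusted p = 1.09e-04). Not every marker followed the sum. By group mean CD163, CD14 and AIF1 were highest in DH, whereas LYZ, MRC1 and SIGLEC1 were highest in DL. At low altitude LYZ was 15.56 in TL and 17.44 in DL, and MRC1, CD14 and SIGLEC1 were also lower in TL. CD163 was 17.01 in TL and 16.79 in DL, and AIF1 16.92 and 16.90. The part of these markers in the C1QA result was not tested.

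C3 (A_72_P165601), the central component on which all pathways meet, read 16.90 and 16.79 in TH, 16.88 and 16.87 in TL, 16.55 and 16.60 in DH, and 16.54 and 16.52 in DL. The 4 Tibetan arrays were above the 4 Duroc arrays, by 0.31 on average (SE 0.03), but the adjusted p of 4.66e-04 did not pass the threshold. With signals scaled to the 75th percentile of each array in place of the deposited values, the breed effect was -0.02, so its direction rests on the scaling. The altitude effect was 0.01 (SE 0.03, adjusted p = 0.88).

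C5 (A_72_P178096), whose cleavage opens the terminal pathway, differed less. It read 15.89 and 15.87 in TH, 16.10 and 16.14 in TL, 16.23 and 16.13 in DH, and 16.16 and 16.08 in DL. The 2 TH arrays were the lowest and the other 6 overlapped. No comparison of C5 passed the threshold: the breed effect was -0.15 (SE 0.03, adjusted p = 0.010), the altitude effect -0.09 (adjusted p = 0.055) and TH minus DH -0.30 (adjusted p = 0.0038). Under scaling to the 75th percentile the breed effect became -0.53 and passed (adjusted p = 4.95e-05), and the altitude effect turned to 0.38.

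CFB (A_72_P302604), which encodes factor B, the protease of the alternative pathway convertase, was the only one of the 7 genes called for both breed and altitude. It read 16.81 and 16.75 in TH, 16.13 and 16.15 in TL, 16.33 and 16.31 in DH, and 15.51 and 15.50 in DL. TH was highest, DL lowest, and DH lay above TL, with no overlap between any 2 groups. The breed effect was 0.55 (SE 0.02, adjusted p = 1.45e-05, 1.46-fold) and the altitude effect 0.73 (SE 0.02, adjusted p = 7.54e-06, 1.66-fold).

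The altitude difference of CFB was called in each breed, at 0.64 in Tibetan pigs (TH minus TL, adjusted p = 1.99e-05) and 0.82 in Duroc pigs (DH minus DL, adjusted p = 3.71e-05). The breed difference was called at low altitude, at 0.64 (TL minus DL, adjusted p = 2.00e-05), and missed the threshold at high altitude, at 0.46 (TH minus DH, adjusted p = 1.82e-04). Within slide 1, TH minus DL was 1.28 and was called. Within slide 2, TL minus DH was -0.18 (adjusted p = 0.0033) and was not. The processed signal before scaling was 85435 to 119081 at high altitude and 47191 to 64303 at low altitude. The altitude effect of CFB kept its direction under each way of making the values, from 0.70 to 1.17, and missed the threshold only with normal-exponential correction of the raw signals (adjusted p = 1.39e-04). Its breed effect also missed it there (adjusted p = 3.08e-04), and fell to 0.15 (adjusted p = 0.0012) with scaling to the 75th percentile. With 1 array left out at a time, the breed call held in 1 of 8 fits and the altitude call in 2 of 8, with adjusted p up to 2.33e-04 and 1.45e-04. Over all tested probes the altitude calls fell from 9041 to between 1230 and 2394 in those fits.

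The summed level of hepatocyte markers, secreted liver proteins, was also highest in TH and lowest in DL. Of 9 listed, 6 had a probe, all well above background on all 8 arrays, and 5 were higher in Tibetan lung and 4 higher at high altitude, with 0 lower in either, against 12.8% and 14% of all tested probes called higher. Their summed log2 level was 15.62 to 15.63 in TH, 14.90 to 14.92 in TL, 14.83 to 14.88 in DH and 14.26 to 14.28 in DL. Albumin (ALB) had a breed effect of 1.46 and an altitude effect of 0.92. Not every marker followed the sum: APOA1, an apolipoprotein, was highest in DH and lowest in TL, and the fibrinogen chains FGB and FGG were lowest in DH. The part of these markers in the CFB result was not tested. The genes whose profile over the 8 arrays lay nearest to that of CFB, after each gene's mean was removed, were CD8A, JMJD4 and SLN of 3827 compared, at a root mean square difference of 0.0804, 0.0864 and 0.0866.

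CFD (A_72_P187051), which encodes factor D (adipsin), the protease that cleaves factor B and is made largely by fat cells, was dim. It read 7.62 and 7.70 in TH, 5.86 and 6.72 in TL, 7.59 and 7.53 in DH, and 7.62 and 7.66 in DL. The 2 TL arrays were below the other 6 and far from each other, with an SD of 0.605 against 0.030 to 0.062 in the other groups. The raw signal was 165 on the first TL array and 263 on the second, the latter within the 245 to 279 of the other 6 arrays. With all 8 arrays no comparison of CFD passed the threshold: TH minus TL was 1.37 (SE 0.28, adjusted p = 0.0068), the breed effect -0.62 (SE 0.20, adjusted p = 0.035) and the altitude effect 0.64 (adjusted p = 0.032). These values rest on which TL array is used. Without the first TL array the breed effect was -0.41 and TH minus TL 0.94 (adjusted p = 3.94e-04). Without the second the breed effect was -0.84, and TH minus TL, at 1.80 (adjusted p = 8.47e-05), and TL minus DL, at -1.78 (adjusted p = 8.71e-05), passed, with the lone TL array assumed to vary like the other groups. Without TL, TH minus DH was 0.10 and DH minus DL was -0.08 (adjusted p = 0.16 and 0.23).

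Of 8 adipocyte markers, all with a probe and 6 of them well above background on all 8 arrays, 2 were higher and 4 lower in Tibetan lung (12.8% and 14.6% of all tested probes), and 3 were higher at high altitude and 0 lower (14% and 12.2%). Among these 3, PLIN1 was well above background only on the TH and DH arrays. It passed the filter on low signal only through the groups where it was high, so its place in these counts is a description with no test. Their summed log2 level was lowest in TL, at 14.86 to 14.90, against 15.11 to 15.14 in TH, 15.72 to 15.75 in DH and 15.43 to 15.44 in DL, and their part in the CFD values was not tested. Not every marker followed the sum. By group mean PLIN1, PPARG and LIPE were lowest in TL, whereas ADIPOQ and FABP4 were lowest in DL, LPL and CIDEC in TH, and LEP was highest in TL. ABCD4 and AVPR2 were among the 3 genes with the profile nearest to that of CFD, at a root mean square difference of 0.20 and 0.21.

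CD55 and CD59, the membrane regulators with a probe, read lower at high altitude. CD55 (A_72_P165046), or decay accelerating factor, takes apart the C3 and C5 convertases on the cell surface. It read 10.66 and 10.69 in TH, 11.47 and 11.43 in TL, 10.71 and 10.72 in DH, and 11.38 and 11.42 in DL. Each high altitude array lay below each low altitude array, and the breeds lay close together at each altitude (TH minus DH -0.04, TL minus DL 0.05, adjusted p = 0.33 and 0.19). The altitude effect was -0.73 (SE 0.02, adjusted p = 7.63e-06), 1.66-fold lower at high altitude, and the breed effect was 0.01 (SE 0.02, adjusted p = 0.82). The difference was called in Tibetan pigs (TH minus TL, -0.78, adjusted p = 1.03e-05) and in Duroc pigs (DH minus DL, -0.69, adjusted p = 5.57e-05). It was also called within each slide, at -0.73 for TH minus DL and 0.74 for TL minus DH. The processed signal was 1456 to 1534 at high altitude and 2548 to 3318 at low altitude. The altitude effect was called under each way of making the values, at -0.63 to -0.74. With 1 array left out, it kept its size but passed in 0 of 8 fits (adjusted p 1.06e-04 to 1.22e-04), and without both TL arrays DH minus DL was again -0.69, with an adjusted p of 4.00e-04.

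CD59 (A_72_P146701), or protectin, blocks assembly of the membrane attack complex. It read 8.46 and 8.63 in TH, 9.34 and 9.33 in TL, 8.93 and 8.88 in DH, and 9.25 and 9.18 in DL. High altitude arrays were again all below low altitude arrays, with TH lowest. The altitude effect was -0.55 (SE 0.04), but the adjusted p of 2.13e-04 missed the threshold, as did TH minus TL at -0.79 (adjusted p = 1.61e-04) and DH minus DL at -0.31 (adjusted p = 0.0095). Within slides TH minus DL was -0.67 and TL minus DH 0.43, neither called. The altitude effect passed when the fit was limited to probes well above background on all 8 arrays (adjusted p = 3.47e-05), when the signals were scaled to the 75th percentile (-0.63) and after subtraction of the local background (-0.30). The breed effect was -0.12 (SE 0.04, adjusted p = 0.063). Endothelial markers, whose cells carry both regulators, had 6 of 8 genes with a probe. Of these, 0 were higher and 2 lower at high altitude (14% and 12.2% of all tested probes), and 0 were higher and 5 lower in Tibetan lung (12.8% and 14.6%). Their summed log2 level was 17.97 to 17.99 in TH, 18.12 in TL, 18.38 to 18.39 in DH and 18.46 to 18.48 in DL. Not every marker followed the sum. For TH minus TL 2 were called higher, KDR at 0.93 and TIE1 at 0.57, and 1 lower, TEK at -0.61 (20.5% and 16.6% of all tested probes). The part of the endothelial markers in the CD55 and CD59 values was not tested.

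**Figure D2:**
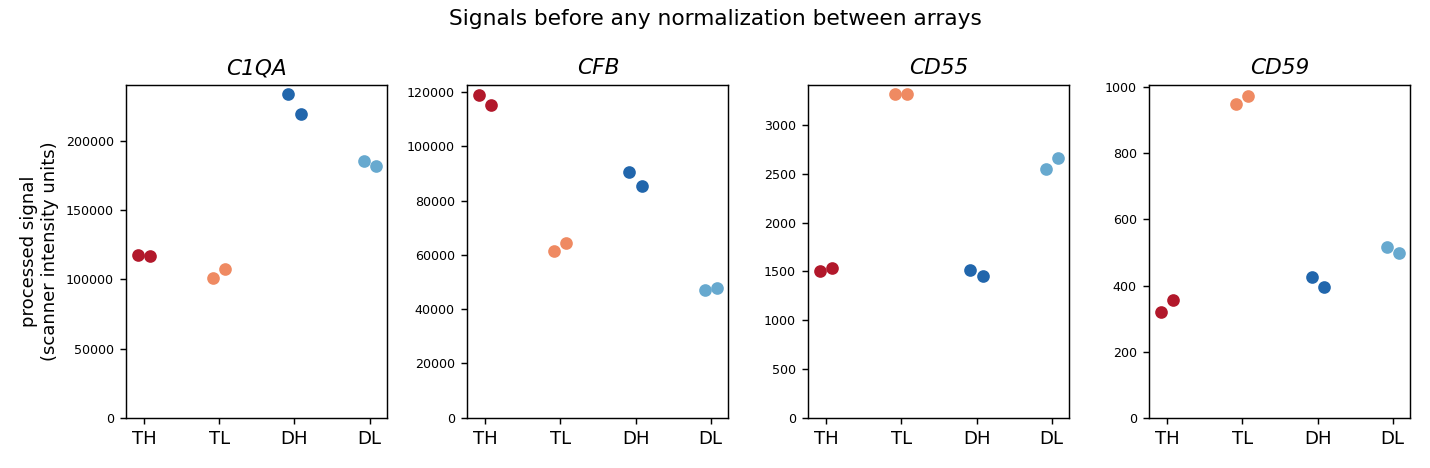
Processed scanner signal (y axis, linear from 0) of C1QA, CFB, CD55 and CD59 in the 4 groups (x axis) before any scaling between arrays, with a point for each array. C1QA lies at 101121 to 118005 on the Tibetan and 182406 to 234090 on the Duroc arrays, and CD55 at 1456 to 1534 on the high altitude and 2548 to 3318 on the low altitude arrays.

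The altitude difference was not shown to depend on breed for any of the 7 genes. None of the interactions passed in limma at the threshold of 0.0001, nor in the same model without moderation of the variances, while 5 of 7 had an unadjusted p under 0.05. The interaction, (TH minus TL) minus (DH minus DL), was -0.47 for CD59 (SE 0.09, adjusted p = 0.0057), -0.31 for C5 (SE 0.07, adjusted p = 0.0094), -0.19 for C1QA (SE 0.04, adjusted p = 0.0087), -0.18 for CFB (SE 0.04, adjusted p = 0.013) and 1.45 for CFD (SE 0.39, adjusted p = 0.021). It was -0.09 for CD55 (SE 0.04, adjusted p = 0.12) and -0.08 for C3 (SE 0.06, adjusted p = 0.32). The median over all tested probes was 0.21. It was 0.33 under scaling by the 75th percentile, where 5 of the 7 values changed sign, to 0.28 for C1QA, 0.32 for C3, 0.26 for C5, 0.09 for CD55 and 0.41 for CFB. For CFD the interaction was 0.33 after subtraction of the local background with an offset of 50.

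**Figure D3:**
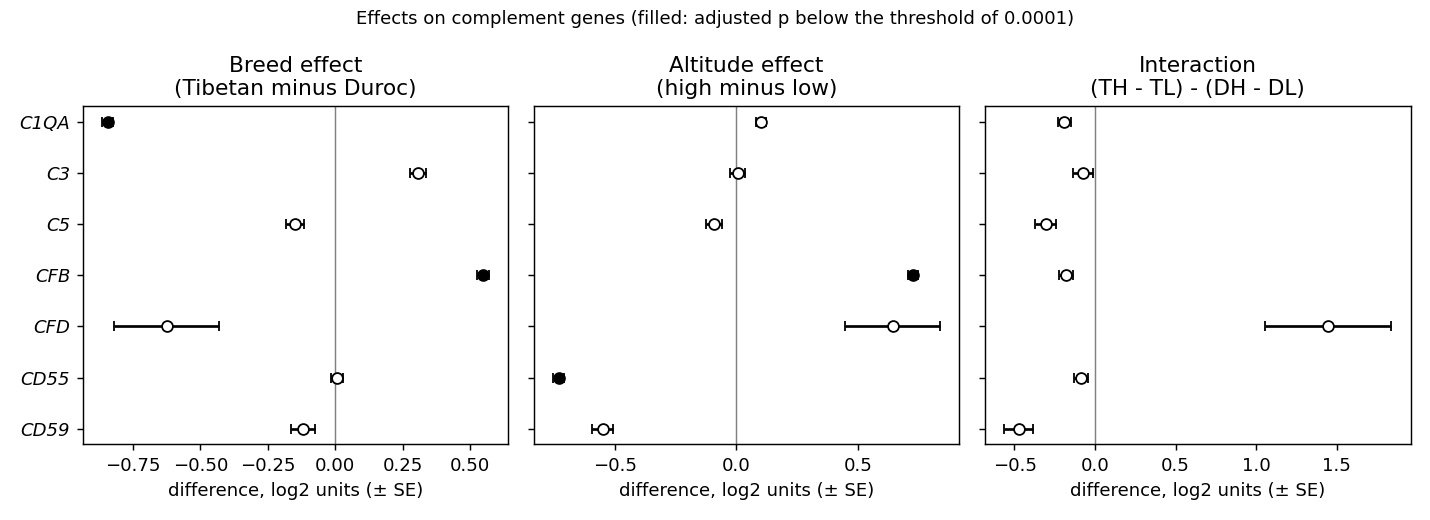
Breed effect, altitude effect and interaction of the 7 complement genes (x axes, log2 units, with SE bars from the limma fit), filled where the adjusted p was below 0.0001. C1QA at -0.84 and CFB at 0.55 are filled for breed, CFB at 0.73 and CD55 at -0.73 for altitude, and no point is filled for the interaction.

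The comparisons of 2 groups share their arrays with the effects above. For TH minus TL the calls were CFB and CD55, 2 of 7 against 37.1% of all tested probes, and for DH minus DL CFB and CD55, 2 of 7 against 9.95%. For TH minus DH the call was C1QA, 1 of 7 against 9.33%, and for TL minus DL C1QA and CFB, 2 of 7 against 37.5%. Within slides the calls were C1QA, CFB and CD55 for TH minus DL (14.1% of all tested probes) and C1QA and CD55 for TL minus DH (33.9%). At an FDR below 0.05 the counts were 5 for TH minus TL, 4 for DH minus DL, 5 for TH minus DH and 4 for TL minus DL, against 76%, 60.2%, 58.9% and 77.4% of all tested probes.

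**Figure D4:**
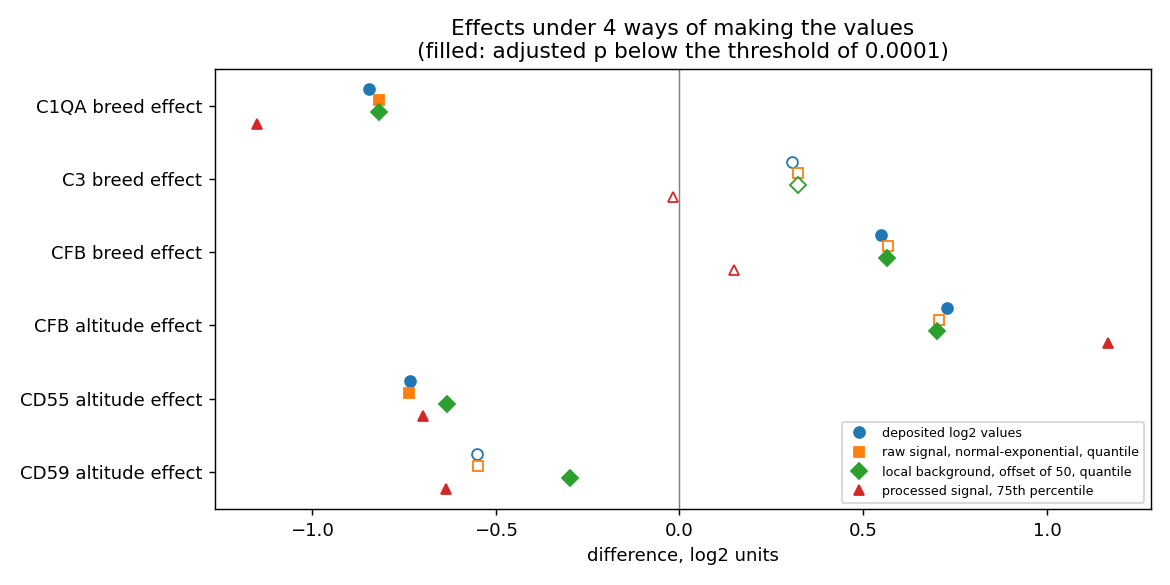
Effects (x axis, log2 units) under 4 ways of making the values, filled where the adjusted p was below 0.0001. C1QA for breed and CD55 for altitude are filled under all 4, the breed effect of C3 lies at 0.31 with the deposited values and at -0.02 with scaling to the 75th percentile, and that of CFB falls from 0.55 to 0.15.

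Of 40 further complement genes, 27 had a tested probe, each read at its brightest probe. For breed 10 were higher and 6 lower in Tibetan lung, against 12.8% and 14.6% of all tested probes. For altitude 10 were higher and 3 lower at high altitude, against 14% and 12.2%, and the interaction was called in 7 genes upward and 3 downward, against 14.9% and 13.5%. Tested probes with a RefSeq transcript as target had other shares: 8.88% and 19.7% for breed, 25.2% and 10.1% for altitude, and 21.8% and 5.91% for the interaction. Among calls over all tested probes, the share that was higher at high altitude was 53.4%, and 64.1% under scaling by the 75th percentile. The median of the 27 was 0.33 for breed, 0.26 for altitude and 0.31 for the interaction. Over all tested probes these medians were -0.07, 0.01 and 0.21. Over tested probes with a RefSeq transcript as target they were -0.12, 0.165 and 0.367, so the interaction median of the 27 was below that of such probes.

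Among 9 genes of initiation and of the convertases, 2 were higher and 3 lower in Tibetan lung, against 12.8% and 14.6% of all tested probes. C4A, a component of the classical and lectin convertase, read 10.59 and 10.52 in TH, 9.09 and 9.08 in TL, 9.17 and 9.14 in DH, and 8.22 and 8.11 in DL, the same order of TH above the migrants and DL lowest that CFB showed. Its breed effect was 1.16 (adjusted p = 7.09e-06) and its altitude effect 1.23 (adjusted p = 7.19e-06). C1S, a protease of the C1 complex, was higher in Tibetan lung by 0.39 (adjusted p = 2.47e-05), but by 0.09, not called, with scaling to the 75th percentile. The lectin pathway recognition genes FCN1, FCN2 and COLEC11 were lower in Tibetan lung, by 1.45, 0.95 and 2.49. FCN1, the ficolin of monocytes, read 10.80 and 10.82 in TL against 13.20 to 13.48 on the other 6 arrays, and COLEC11, a collectin, was also lowest in TL, at 7.61 and 7.54 against 9.76 to 11.50. In the fit without the TL arrays TH minus DH was -0.24 for FCN1 (adjusted p = 0.0049) and -1.69 for COLEC11 (adjusted p = 1.39e-04), neither of them called. FCN1 and COLEC11 carried called interactions of 2.41 and 1.60, which cannot be told apart from the slide. FCN2 was lowest in TH, at 17.33 and 17.37 against 18.28 to 18.98 elsewhere.

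MBL2, a mannose-binding lectin of the liver, was named after its values were seen. It was well above background on both TH arrays, at 8.35 and 8.38, and on no other array. It thus passed the filter on low signal only through TH, so its difference is given as a description with no test. TH was at least 16.6-fold higher than TL, at least 6.66-fold higher than DH and at least 6.37-fold higher than DL. These bounds set TH against the higher, on each array, of the probe's own value and the lowest value among probes well above background.

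Of the 6 terminal pathway genes, which build the membrane attack complex, 3 were higher in Tibetan lung and 0 lower (12.8% and 14.6% of all tested probes), and 3 had a called interaction, all upward (14.9%). C8A read 9.65 and 9.64 in TH, 7.48 and 7.46 in TL, 8.30 and 8.28 in DH, and 8.01 and 8.05 in DL. C8G and C7 were likewise highest on the 2 TH arrays, at 10.29 and 10.24 for C8G and 9.19 and 9.17 for C7. The interaction was 1.91 for C8A, 1.69 for C8G and 1.61 for C7, and the breed effect 0.40 for C8A (adjusted p = 2.27e-05) and 0.54 for C8G (adjusted p = 2.43e-05). A second C8G probe, well above background on 4 arrays, gave a breed effect of 0.0079 (adjusted p = 0.74). At low altitude the direction turned: TL minus DL was -0.55 for C8A (adjusted p = 1.76e-05), -0.60 for C7 (adjusted p = 2.08e-05) and -0.31 for C8G (adjusted p = 5.95e-04, not called). C9, the pore-forming unit, differed by breed (0.97, adjusted p = 2.92e-06) and altitude (0.95, adjusted p = 3.99e-06) with an interaction of 0.00 at its brightest probe, whereas a second probe above background on all 8 arrays gave an interaction of 0.84 (adjusted p = 8.08e-05). C6 and C8B were not called for breed. C6 was highest in TL and lower at high altitude (altitude effect -1.11, adjusted p = 2.04e-05), whereas 3 of the 6 genes were higher at high altitude, against 14% of all tested probes. The summed log2 level of the 6 genes was 14.46 to 14.47 in TH, 13.85 to 13.89 in TL, 13.54 in DH and 13.04 to 13.07 in DL. C9 was the brightest of the 6 in each group. Not every gene followed the sum: C7, C8A and C8G were lowest in TL. The summed level of the hepatocyte markers had the same order of groups as the summed level of the 6 genes, and their part in these values was not tested.

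Of 7 soluble regulators, 4 were higher in Tibetan lung and 0 lower (12.8% and 14.6% of all tested probes). Clusterin (CLU), which binds the terminal complex, had a breed effect of 1.18 (adjusted p = 2.42e-06), and vitronectin (VTN), with a like role, 0.83 (adjusted p = 3.99e-05) beside an altitude effect of 1.04 (adjusted p = 1.99e-05). C4BPB, the beta chain of C4b-binding protein, was highest in TH, at 11.53 and 11.52 against 10.31 to 10.53, and its breed effect was 0.54 beside an interaction of 1.29. C4BPA, the alpha chain, had an interaction of -1.73 (adjusted p = 3.50e-05), being higher in the migrant groups TL and DH, at 18.42 to 18.79, than in the native groups TH and DL, at 17.67 to 17.86. CFI, or factor I, which cleaves C3b, was also highest in TL and DH. It was not well above background on either DL array, so its interaction is a bound, at most -3.79 with DL at the lowest signal well above background. TL was at least 5.06-fold and DH at least 4.43-fold higher than DL, given as a description with no test. The native and the migrant groups also lay on different slides, so the arrangement of C4BPA and CFI cannot be told apart from the slide. SERPING1, the C1 inhibitor, was higher in Tibetan lung by 0.33 (adjusted p = 6.41e-05), but read -0.03 with scaling to the 75th percentile, and 0.15 (adjusted p = 0.0081) at a second probe. The interaction of CLU, -0.63 (adjusted p = 9.65e-05), read 0.06 under that scaling.

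Of 5 receptors, 1 was higher and 3 lower in Tibetan lung (12.8% and 14.6% of all tested probes). CR2, the receptor for C3d on B cells, read 12.13 and 12.16 in TH against 9.24 to 9.68 on the other 6 arrays, and both the breed effect, 1.48, and the interaction, 2.09, were called (adjusted p = 1.45e-06 and 1.35e-06). B cell markers had the same form: CD79A read 12.46 and 12.51 in TH against 8.25 to 9.80 elsewhere. Of 10 T and B lymphocyte markers, 9 had a probe. Of these, 3 were higher and 1 lower in Tibetan lung (12.8% and 14.6% of all tested probes), 4 had an interaction called upward and 1 downward (14.9% and 13.5%), and 7 were higher at high altitude and 0 lower (14% and 12.2%). Their summed log2 level was 15.96 to 15.97 in TH, 14.66 to 14.70 in TL, 15.10 to 15.15 in DH and 14.73 to 14.74 in DL, and their part in the CR2 result was not tested. C5AR1, the C5a receptor of myeloid cells, CD93, a receptor of endothelial and myeloid cells, and ITGB2, the beta chain of complement receptor 3, were lower in Tibetan lung by 0.48, 0.66 and 0.40 (adjusted p = 3.50e-05, 4.13e-06 and 5.40e-05). A second probe for ITGB2 gave 0.03 (adjusted p = 0.75). Of the macrophage markers 4 of 6 were also lower in Tibetan lung, and of the endothelial markers 5 of 6, and their part in the receptor values was not tested.

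**Figure D5:**
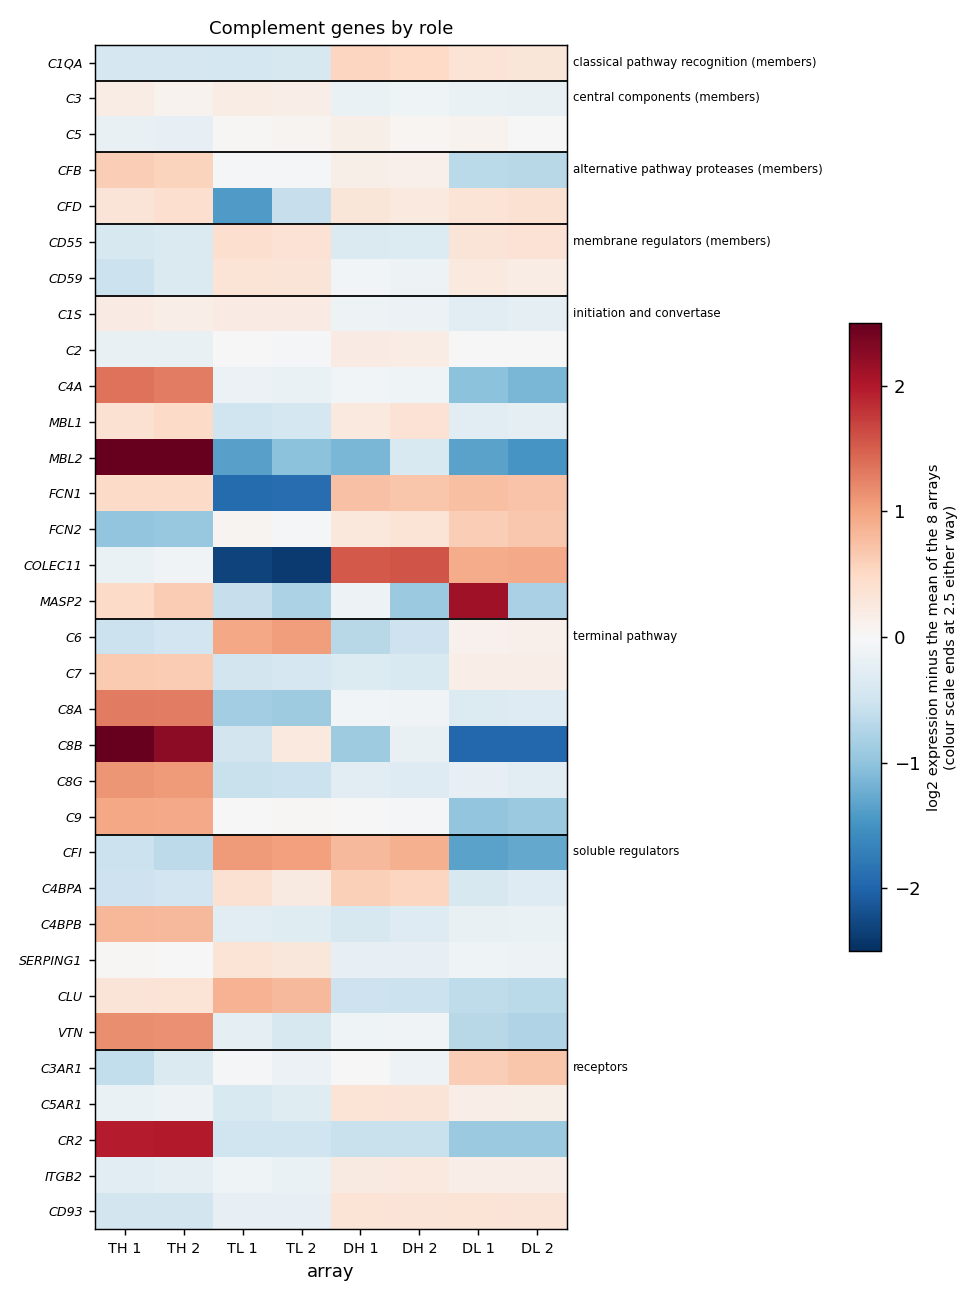
Log2 expression of 33 complement genes (rows, by role) on the 8 arrays (columns), each minus its own mean over the arrays, red above and blue below, on a scale that ends at 2.5 either way. C8A, C8G, C9, C4A, VTN and CR2 are highest on the 2 TH arrays, and FCN1 and COLEC11 are lowest on the 2 TL arrays.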

How the data were processed

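Lung RNA of 8 pigs (TH, TL, DH and DL, 2 each, grouped by the labels) was measured on Agilent porcine 1-color arrays. The authors extracted spot intensity with Agilent Feature Extraction, version 10.7.3.1 per the file headers and 9.1 in the submitters' processing notes. They deposited log2 values made, per the methods, by RMA. All columns have a median of 7.3959 and follow the order of the processed signals, and the exact steps are not given in the sources used here. The deposited scanner files also hold other columns: flags for well above background, saturation and low gain, and probe names (the unit "other"), and give the median, not the mean, raw signal of a spot. Genome build was not named, so no coordinates are given.

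Probes well above background on at least 1 array were tested by a two-way model (breed, altitude, interaction) on the deposited log2 values with limma 3.58.1 in R 4.3.3, as in the methods but with moderated variances. The methods' own two-way model was an alternative. Other values were made from raw signals by normal-exponential correction (offset 0, or 50 with local background) and quantile normalization, and from processed signals scaled to the 75th percentile. Symbols came from RefSeq accessions on the array (2683 probes) and the study's supplementary tables (2995 probes); 660 probes were named by both, 98.03% alike. CFD was named by the latter alone. The complement genes, the lists and their tests were chosen with earlier results of these data known. Named genes were all 9 members, other complement genes called for breed or interaction, and the 3 nearest profiles of members whose group means spanned at least 1 log2 unit; some of these are not reported here but stay in the counts over lists. The marker lists covered macrophage, alveolar type II, adipocyte, hepatocyte, endothelial, neutrophil, lymphocyte, skeletal muscle and erythroid cells. Of the lists not described with a result, muscle had 1 of 8 tested genes higher and 1 lower in Tibetan lung, against 12.8% and 14.6% of all tested probes. At high altitude 3 muscle genes were higher and 1 lower, against 14% and 12.2%. Of 7 erythroid genes listed, only 2 had a probe, and those 2 were higher in Tibetan lung (12.8% of all tested probes). Arrays of a group differed by a median of 0.0580 log2 units over 41 probes with repeated spots, and spots within an array by 0.0509, so p-values may measure technical spread. Precision is limited by the small number of arrays. The fit was tested on simulated data. Python 3.11.15, numpy 2.4.6, pandas 2.3.3 and matplotlib 3.10.9 were used for tables and figures.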

Additional observations from a re-analysis of the deposited data

Results flagged for a closer look

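Of 27 tested complement genes outside the 7 with the main results, 10 had a called interaction, against 28.4% of all tested probes. In these 10 the altitude difference in Tibetan pigs and that in Duroc pigs differed by this test (limma, adjusted p below 0.0001). The difference between the breeds' altitude effects was 2.41 log2 units for FCN1, 1.60 for COLEC11, 1.61 for C7, 1.91 for C8A, 1.69 for C8G, 1.29 for C4BPB and 2.09 for CR2. It was -1.73 for C4BPA and -0.63 for CLU. For CFI the fit gave -3.81, but DL was not well above background, so the value is a bound of at most -3.79. Each is set between slides, so slide and interaction cannot be told apart.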

How the results depend on the processing

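Of the 2 breed calls among the 7 genes, 1 was left with normal-exponential correction of the raw signals, and there were 5 at an FDR below 0.05. Of the 2 altitude calls, 1 was left with that correction, and there were 4 with scaling to the 75th percentile and 5 at an FDR below 0.05. The 0 interaction calls became 5 at an FDR below 0.05. For TH minus TL the 2 calls became 0 with the raw signals, 4 with 75th percentile scaling and 5 at an FDR below 0.05. The 12777 calls over all tested probes became 10107 with the raw signals and 14443 with that scaling. For DH minus DL the 2 calls became 0 with the raw signals, with local background, without moderation of the variances and without both TL arrays (an alternative chosen after seeing the data), and 4 at an FDR below 0.05. The 3424 calls over all tested probes became 1045 with the raw signals, 929 without moderation and 0 without both TL arrays. They were 3719 with local background. For TH minus DH the 1 call became 0 with the raw signals and without both TL arrays, 2 with the filter on all 8 arrays, and 5 at an FDR below 0.05. The 3211 calls over all tested probes became 1510 with the raw signals and 228 without both TL arrays. With the filter on all 8 arrays they were 6203 of 24775 probes. For TL minus DL the 2 calls became 1 with the raw signals and with local background, and 4 at an FDR below 0.05. The 12906 calls over all tested probes became 10227 with the raw signals and 12652 with local background. The other alternatives left these counts within 1.5 times, and the slide as a block left the breed and altitude calls at 2 and 2.

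Replicate numbers did not pair the samples (correlation of deviations -0.0433 to 0.0914). With the replicate block, calls were 1 for breed, 2 for altitude, 0 for the interaction, 0 for TH minus TL, DH minus DL and TH minus DH, and 1 for TL minus DL. Over all tested probes the block left 7141 calls for TH minus TL, 0 for DH minus DL, 208 for TH minus DH and 7191 for TL minus DL.

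With 1 array left out, so that the lone array of its group was assumed to vary like the others, calls ranged from 1 to 2 for breed, 0 to 1 for altitude, 0 to 1 for TH minus TL and 0 to 2 for TL minus DL, and were 0 for the interaction, DH minus DL and TH minus DH.

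Signs turned as follows with scaling to the 75th percentile. The breed effect was -0.017 for C3, -0.072 for CD55 and 0.058 for CD59, and the altitude effect 0.38 for C5. The interaction was 0.28 for C1QA, 0.32 for C3, 0.26 for C5, 0.086 for CD55 and 0.41 for CFB. TH minus TL was 0.58 for C3 and 0.51 for C5, DH minus DL 0.019 for CFD, and TL minus DL -0.18 for C3, -0.66 for C5, -0.12 for CD55 and -0.059 for CFB. With the raw signals and with local background, the altitude effect was -0.0025 and -0.0033 for C1QA and -0.0338 and -0.0335 for C3, and TH minus TL was -0.0759 and -0.0756 for C1QA. With 1 array left out, 11 values near 0 turned: the CD55 breed effect ranged from -0.0057 to 0.017, the C3 altitude effect from -0.020 to 0.031, TH minus TL from -0.0093 to 0.022 for C1QA and from -0.083 to 0.019 for C3, and TL minus DL from -0.036 to 0.043 for C5. The cause was not tested.

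Of the other values of single genes, 341 kept their direction and their side of the threshold, 25 lost and 32 gained a call under these alternatives, and 312, 67 and 2 did so with 1 array left out. The mean over all probes of a gene was not run, because each of the 7 genes had 1 probe. For the 27 other complement genes, calls for breed, altitude and the interaction were 7, 8 and 6 with the replicate block and 25, 22 and 22 at an FDR below 0.05, against 16, 13 and 10. At an FDR below 0.05, 71.6%, 70.8% and 73.7% of all tested probes were called. With a RefSeq transcript as target it was 75.8%, 79.7% and 77.7%. Over all probes the replicate block called 3697, 2888 and 4094, against 9424, 9041 and 9786. The 2 arrays per group, 2 slides crossed with the interaction and 1 probe per gene limit all results, and CFD was too dim for its TL values to be firm.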
